A study of Mus musculus with 2 samples.

Results

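The genes that define how brown fat makes heat and what sets it apart from other fat were followed by symbol through a transcriptome of mouse brown adipose tissue. They were Ucp1, Ucp3, Cidea, Dio2, Ppargc1a, Ppargc1b, Prdm16, Zic1, Elovl3 and Otop1, and all 10 of 10 were found among 10778 gene symbols, each with 1 transcript row. SML denotes tissue from male C57BL6/J mice, 8 to 12 weeks old, on a diet with 60% of energy from fat and injected into the peritoneum with SML at 5 mg per kg body weight over 10 days. HFD control denotes tissue from mice of that strain, sex and age on the same diet for 10 days without SML. SML is an abbreviation that the labels leave unexplained, while the title speaks of sesaminol, a lignan of sesame. Each group was 1 library, and the sources used here do not say how many animals went into a library, which depot was dissected or whether controls received a vehicle injection.

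Brown adipocytes burn fatty acids in mitochondria whose inner membrane leaks protons through uncoupling protein 1, so that energy is released as heat. Noradrenaline from sympathetic nerves drives the process through cyclic AMP, which frees fatty acids and switches on Ucp1, Dio2 and the PGC-1 coactivators. The cell type itself is specified by transcriptional regulators such as PRDM16, while Zic1 marks the classical brown depots and is low in beige adipocytes.

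Abundance is given as FPKM, fragments per kilobase of transcript scaled by the authors for library size, which allows levels to be compared between genes. Differences are given as log2(FPKM + 1), SML minus HFD control, a scale on which the change of low genes is understated. Dividing the deposited scaled counts by the step taken as 1 fragment gave an estimated 8503763 fragments for SML and 12000340 for HFD control. Ratios are of scaled counts, SML over HFD control, with a 95% exact binomial interval that covers counting error only. With 1 library per group there is no test and no replicate check, so a gene was called higher or lower when its difference reached 1.5-fold and its mean FPKM was at least 1. The SML library held less RNA of several other cell types: 22 of 22 skeletal muscle markers that passed the filter were lower, as were 6 of 10 macrophage and 4 of 4 erythroid markers, with 0 higher in these lists. Of the muscle markers, Mybpc2, Myh1, Myh2 and Myh7 passed the filter through their HFD control level alone. In tissue of this kind, fewer cells of a type and less RNA per cell cannot be told apart.

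Dio2 and Zic1 were the genes of the set that were higher in the SML library, and Prdm16 stood lower but under the filter on low genes. Ucp1 and Cidea, the most abundant of the set, differed by less than 1.1-fold between the libraries on the deposited scaling. Of the 9 genes that passed the filter 2 were higher and 0 were lower, where 5.44% of all 9887 genes tested were higher and 5.76% were lower. The filter itself depends on the levels compared: Zic1 passed it through its SML level alone (2.17 FPKM in SML, 0.86 FPKM in HFD control), while Prdm16 was left out. Without a filter 2 of the 10 were higher and 1 was lower, where 571 of all 10778 genes were higher and 1117 lower. The median difference of the 9 was 0.21, against 0 over all genes tested. That of all 10 was 0.15, against -0.02 over all 10778 genes. Over all genes that passed the filter 538 were higher and 569 lower, or 764 higher and 453 lower once both columns were scaled to equal totals. That scaling raises every SML value, so Dio2 and Zic1 could not lose their call under it. No other member reached the rule there. Over all 10 genes the difference was above 0 for 7 and below 0 for 3.

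**Figure D1:**
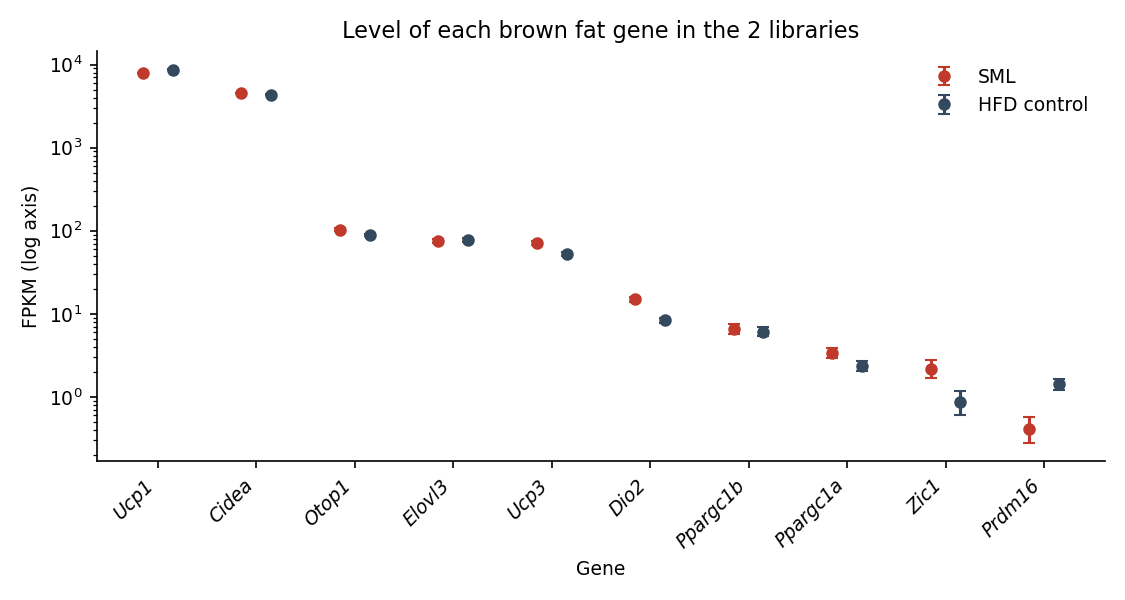
FPKM (log axis) of the 10 brown fat genes in the SML library (red, left of each pair) and the HFD control library (dark, right), with 95% exact Poisson intervals for counting error. Ucp1 and Cidea lie far above the others in both libraries, and the order of genes is the same except for Zic1 and Prdm16, which change places.

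The levels spanned about 4 orders of magnitude and kept nearly the same order in both libraries. From high to low, SML and HFD control shared the sequence Ucp1, Cidea, Otop1, Elovl3, Ucp3, Dio2, Ppargc1b and Ppargc1a. The last places were Zic1 then Prdm16 in SML and Prdm16 then Zic1 in HFD control. In SML the neighbours Elovl3 and Ucp3 could not be separated by counting error, with intervals of 71.7 to 80.2 and 67.5 to 74.6 FPKM. In HFD control the same pair was separated, at 73.5 to 80.8 FPKM for Elovl3 and 50.2 to 55.5 FPKM for Ucp3. The remaining neighbours had intervals that did not overlap in either library, though in HFD control those of Prdm16 (1.21 to 1.66 FPKM) and Zic1 (0.602 to 1.19 FPKM) nearly touched.

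Ucp1, which encodes the proton carrier behind brown fat heat production, stood at 7955 FPKM in SML and 8702 FPKM in HFD control. Among the 10778 listed symbols, none of them mitochondrially encoded, it was the 5th most abundant in both libraries. It held 1.01% of their total FPKM in SML and 1.04% in HFD control. The count ratio was 0.912 (0.905 to 0.919), on 113322 fragments in SML and 168858 in HFD control, so on the deposited scaling the lower level in SML exceeded counting error while lying far inside the 1.5-fold limit. Its difference of -0.13 lay at percentile 34.2 of the genes tested. The size of that difference depended on the scaling: it was -0.04 with equal totals, -0.08 with equal totals outside the 50 highest genes and -0.05 with equal totals without the skeletal muscle list. The gene lies at chr8:83290348-83298456 on the plus strand (mm10), and the row matched the single annotated transcript to within 4 bases at both ends.

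Ucp3, a related mitochondrial carrier that is also prominent in skeletal muscle, stood at 71.0 FPKM in SML and 52.8 FPKM in HFD control. The count ratio was 1.34 (1.25 to 1.44) and the difference 0.42, below the size rule and at percentile 88.5. Skeletal muscle markers moved the other way in the same libraries, with a median difference of -3.55 and a summed level of 473 FPKM over 23 listed genes in SML against 5148 FPKM in HFD control. None of the 23 was listed at 0, and their levels ran from 0.09 to 147 FPKM in SML and from 1.7 to 881 FPKM in HFD control. The part of muscle RNA in the Ucp3 value was not tested. Ucp2, the family member of wide tissue distribution that neighbours Ucp3 on chromosome 7, stood at 51.5 FPKM in SML and 74.2 FPKM in HFD control, a ratio of 0.693 (0.632 to 0.759). The ratio of Ucp3 to Ucp2 level was therefore 1.38 in SML and 0.711 in HFD control, and that of Ucp1 to Ucp3 was 112 in SML and 165 in HFD control. Slc25a14, a brain-type relative, was low at 0.81 FPKM in SML and 1.41 FPKM in HFD control (10 fragments in SML and 23 in HFD control), and Slc25a27 and Slc25a30 were without a row. Of the 4 family members tested 0 were higher and 0 lower, with a median of -0.27.

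Cidea, which encodes a lipid droplet protein that promotes droplet growth and is used as a brown fat marker, stood at 4528 FPKM in SML and 4350 FPKM in HFD control. It ranked 21st in SML and 24th in HFD control among the listed symbols. The ratio of 1.04 (1.02 to 1.05) rested on 43301 fragments in SML and 56734 in HFD control, and the difference was 0.06, or 0.14 with equal totals. Its paralogues were less abundant in both libraries. Cidec, the droplet protein shared with white fat, had 1195 FPKM in SML and 1224 FPKM in HFD control (ratio 0.974, 0.955 to 0.993), and Cideb, best known from liver, had 10.98 FPKM in SML and 12.5 FPKM in HFD control. Cidea exceeded Cidec 3.79-fold in SML and 3.55-fold in HFD control. The Cidea row began 22395 bases upstream of the annotated gene, inside the end of Impa2, which has a row of its own. It also overlaps B430212C06Rik on the minus strand, which likewise has its own row.

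Elovl3, an elongase of very long chain fatty acids that is strongly induced by cold in brown fat, stood at 75.9 FPKM in SML and 77.1 FPKM in HFD control. Its ratio of 0.982 (0.913 to 1.06) included 1, with 1255 fragments in SML and 1736 in HFD control. The row covers chr19:46131899-46148325 on the plus strand and runs 12631 bases past the end of Elovl3, over Pitx3 on the opposite strand, which had no row. The length implied by count over FPKM was 1890 bases, against 1881 bases for the annotated Elovl3 transcript. Among other enzymes of the elongation cycle, Elovl6, which lengthens palmitate, was higher at 54.5 FPKM in SML against 30.9 FPKM in HFD control, while Tecr, the reductase of the last step, was lower at 288 FPKM in SML against 460 FPKM in HFD control. Elovl5 (26.0 FPKM in SML, 25.8 FPKM in HFD control) and Elovl1 (7.79 FPKM in SML, 10.8 FPKM in HFD control) completed the elongases with a row. Of 8 elongation genes tested, with Elovl3 among them, 1 was higher and 1 lower, and the median was 0.05. Elovl3 exceeded Elovl6 1.39-fold in SML and 2.49-fold in HFD control.

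**Figure D2:**
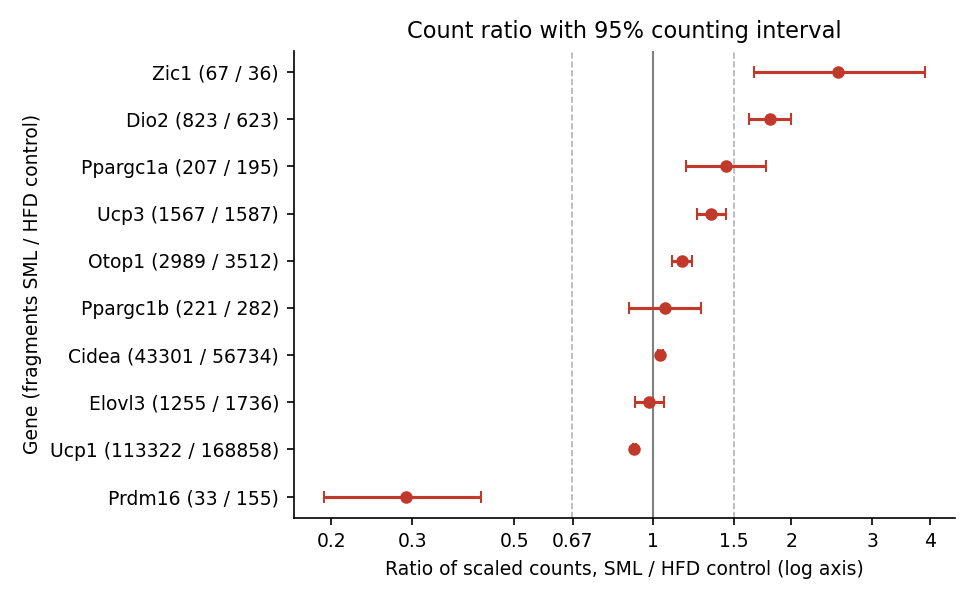
Ratio of scaled counts, SML over HFD control (log axis), for each brown fat gene with its 95% exact binomial interval, and the fragments behind it in SML and HFD control. Dashed lines mark 1.5-fold; Zic1 and Dio2 lie above the upper line with their whole interval and Prdm16 below the lower one, while Elovl3 and Ppargc1b include 1.

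The interval of the ratio excluded 1 for 7 of the 9 genes that passed the filter, where 48.6% of all genes tested did so. Prdm16, under the filter, also had an interval that excluded 1. The intervals of Zic1, Dio2 and Prdm16 lay wholly beyond 1.5-fold, and that of Ppargc1a reached across it.

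Dio2 encodes the deiodinase that turns thyroxine into active triiodothyronine inside the brown adipocyte. It stood at 14.98 FPKM in SML and 8.34 FPKM in HFD control, on 823 fragments in SML and 623 in HFD control. The ratio was 1.79 (1.62 to 1.99), and the difference of 0.77 lay at percentile 97.9. The row matched the annotated gene at chr12:90724552-90738438 on the minus strand, which overlaps the noncoding gene Gm26512 on the other strand. After correction for a trend on GC content and length the difference of Dio2 was 0.55, and at a pseudocount of 5 it was 0.583, both under the size rule of 0.585. Among genes of thyroid hormone action, Thrb, a nuclear receptor for triiodothyronine, was also higher without correction for that trend. It stood at 3.19 FPKM in SML and 1.67 FPKM in HFD control. Thra, the other receptor gene, had 31.6 FPKM in SML and 26.9 FPKM in HFD control. Thrsp, a lipogenic gene that responds to the hormone, had 4018 FPKM in SML and 4777 FPKM in HFD control, a ratio of 0.837 (0.826 to 0.849). Of 9 genes of this list tested, Dio2 included, 2 were higher and 0 lower, with a median of 0.22, and Dio1 and Dio3 were without a row.

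Promoter windows from RefSeq (GRCm38.p6, 250 bases before to 50 after the annotated start) are printed for the 3 genes whose ratio lay beyond 1.5-fold and for Ucp1, the most abundant gene of the set. A window was held for 7 of the 10 genes. Capitals mark matches on either strand to TGACGTCA (the cyclic AMP response element), TGACG (its half-site, contained in the full element), AGGTCA (a nuclear receptor half-site), TATAAA (the TATA box) and CCAAT.
Dio2, chr12:90738989-90739288, minus strand: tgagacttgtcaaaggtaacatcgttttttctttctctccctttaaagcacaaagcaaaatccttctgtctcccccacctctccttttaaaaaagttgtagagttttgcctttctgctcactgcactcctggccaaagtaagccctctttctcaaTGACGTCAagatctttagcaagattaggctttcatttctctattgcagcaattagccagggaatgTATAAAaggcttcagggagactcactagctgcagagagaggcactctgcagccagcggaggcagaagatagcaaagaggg
Zic1, chr9:91365719-91366018, minus strand: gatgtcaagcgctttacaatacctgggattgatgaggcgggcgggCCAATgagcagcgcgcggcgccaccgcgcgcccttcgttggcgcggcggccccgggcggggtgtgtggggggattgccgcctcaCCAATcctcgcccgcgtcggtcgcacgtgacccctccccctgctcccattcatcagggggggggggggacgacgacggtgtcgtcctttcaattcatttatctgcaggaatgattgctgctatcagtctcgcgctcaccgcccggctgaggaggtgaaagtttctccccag
Prdm16, chr4:154636824-154637123, minus strand: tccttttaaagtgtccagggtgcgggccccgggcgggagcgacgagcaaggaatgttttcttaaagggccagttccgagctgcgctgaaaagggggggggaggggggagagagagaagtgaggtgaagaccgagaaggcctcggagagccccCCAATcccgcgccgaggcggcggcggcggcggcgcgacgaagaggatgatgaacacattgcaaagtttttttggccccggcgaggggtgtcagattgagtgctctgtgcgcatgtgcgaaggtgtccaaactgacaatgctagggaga
Ucp1, chr8:83290098-83290397, plus strand: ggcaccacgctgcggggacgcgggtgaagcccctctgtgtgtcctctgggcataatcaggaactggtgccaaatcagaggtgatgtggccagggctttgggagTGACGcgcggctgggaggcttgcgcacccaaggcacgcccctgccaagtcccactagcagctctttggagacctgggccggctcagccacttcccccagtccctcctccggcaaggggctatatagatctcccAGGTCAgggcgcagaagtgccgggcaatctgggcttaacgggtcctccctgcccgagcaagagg
The full cyclic AMP element was matched in Dio2 alone among the 7 windows, and in 1.79% of 32851 windows in all. That Dio2 window starts from a RefSeq start 600 bases upstream of the 5′ end of the deposited row. A TATA box was matched in Dio2 (13.6% of all windows), and a TGACG half-site and an AGGTCA half-site in Ucp1 (20.8% and 16.3% of all windows). Zic1 held 2 CCAAT matches and Prdm16 held 1, where 37.4% of all windows held at least 1. GC content was 44.7% in the Dio2 window, 65.3% in Zic1, 61.0% in Prdm16 and 64.7% in Ucp1, against a median of 52.7% over all windows. A match is a string of letters and not a measured binding site.

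Otop1, which encodes a proton channel of the otopetrin family known from the inner ear and sour taste cells, was the third most abundant gene of the set. It stood at 103 FPKM in SML and 89.2 FPKM in HFD control, with a ratio of 1.16 (1.10 to 1.21) on 2989 fragments in SML and 3512 in HFD control. The difference of 0.21 was the median of the 9 genes that passed the filter. Its row lies at chr5:38277404-38304217 on the plus strand, and no other annotated gene overlaps it. Otop2 and Otop3 were without a row.

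The PGC-1 coactivators bind nuclear receptors and nuclear respiratory factors and raise the transcription of mitochondrial genes. Ppargc1a, the member induced by cyclic AMP, stood at 3.38 FPKM in SML and 2.34 FPKM in HFD control, with 207 fragments in SML and 195 in HFD control. Its ratio was 1.44 (1.18 to 1.76) and its difference 0.39, which became 0.10 after that correction. Ppargc1b, the less inducible paralogue, stood at 6.53 FPKM in SML and 6.12 FPKM in HFD control, a ratio of 1.06 (0.889 to 1.27) on 221 fragments in SML and 282 in HFD control. Its difference was 0.08, or 0.15 with equal totals. Ppargc1b thus exceeded Ppargc1a 1.93-fold in SML and 2.61-fold in HFD control. Both genes are also active in skeletal muscle, whose markers had a median difference of -3.55 here, and the part of that in either value was not tested. The Ppargc1a row, chr5:51454249-51553921 on the minus strand, started within 1 base of an annotated start and 13804 bases downstream of the start used by RefSeq.

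Among partners and targets of the coactivators that passed the filter, Gabpa alone reached the size rule. This subunit of nuclear respiratory factor 2 was higher at 8.62 FPKM in SML and 4.71 FPKM in HFD control. Esrra, the nuclear receptor through which PGC-1 proteins act on mitochondrial genes, had 119 FPKM in SML and 94.9 FPKM in HFD control (ratio 1.26, 1.19 to 1.33). Tfam, the mitochondrial transcription factor, had 12.8 FPKM in SML and 9.95 FPKM in HFD control. Pprc1, the third family member, had 1.54 FPKM in SML and 1.59 FPKM in HFD control. Kat2a, an acetyltransferase that acts on PGC-1 alpha, had the lowest difference among those that passed the filter, at -0.13. Sirt1, a deacetylase of PGC-1 alpha, was under the filter and listed at 0 FPKM in SML against 0.72 FPKM in HFD control, on 20 fragments in SML and 35 in HFD control (ratio 0.797, 0.425 to 1.38). Of 10 genes of this list tested, both coactivators included, 1 passed the rule upwards and 0 downwards, and the median was 0.09.

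Zic1 encodes a zinc finger transcription factor that marks classical brown fat. It stood at 2.17 FPKM in SML and 0.86 FPKM in HFD control. The ratio was 2.53 (1.66 to 3.90) on 67 fragments in SML and 36 in HFD control. The difference was 0.77 at percentile 97.8, and 0.64 after correction for GC content and length. That correction used the longest annotated transcript, of 5606 bases, whereas the length implied by count over FPKM was 3346 bases. A correction at the implied length was not tested. Zic1 had the lowest HFD control level of the 10 genes, and its difference moved with the pseudocount, to 1.24 at 0.1 and 0.29, under the size rule, at 5. The row, chr9:91360345-91365799 on the minus strand, overlaps the divergent gene Zic4, and since no strand-specific step is named in the labels, reads of the shared stretch cannot be told apart. Zic2, Zic4 and Zic5 were without a row.

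Prdm16, a zinc finger regulator that holds brown fat precursors to that fate and away from muscle, stood at 0.41 FPKM in SML and 1.42 FPKM in HFD control. It had 33 fragments in SML and 155 in HFD control, and was 3.44-fold lower in SML (2.36 to 5.20). The mean of 0.915 FPKM put it under the filter, so it does not count among the called genes. Without a filter it was 1 member lower, where 1117 of all 10778 genes were lower. Its difference of -0.78 lay at percentile 3.16 of the genes tested and was -0.77 after the same correction, -1.58 at a pseudocount of 0.1 and -0.25 at 5. The row covers chr4:154316125-154636873 on the minus strand, a span of 320749 bases with 13 annotated transcripts, and overlaps B230104I21Rik and 2 antisense genes, all without a row of their own. Prdm16 and Zic1 thus differed in opposite directions: Zic1 exceeded Prdm16 5.29-fold in SML, whereas the level of Zic1 was 0.606 times that of Prdm16 in HFD control.

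The genes whose products work with PRDM16 were mixed in direction. Cebpb, its partner in the switch to brown fat, was higher at 228 FPKM in SML and 135 FPKM in HFD control, a ratio of 1.69 (1.60 to 1.78). The corepressor genes Ctbp1 (63.3 FPKM in SML, 47.7 FPKM in HFD control) and Ctbp2 (5.16 FPKM in SML, 4.18 FPKM in HFD control) had positive differences under the rule. Mecom, the closest paralogue, was under the filter at 1.21 FPKM in SML and 0.73 FPKM in HFD control. Zfp423, which restrains the brown programme in white fat, had 2.52 FPKM in SML and 3.86 FPKM in HFD control. Ehmt1, a histone methyltransferase that binds PRDM16, had 1.61 FPKM in SML and 2.06 FPKM in HFD control, and Tle3, a corepressor that competes with it, had 4.36 FPKM in SML and 5.42 FPKM in HFD control. Of 7 genes of this list tested, Cebpb alone passed the rule, and the median was 0.13.

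**Figure D3:**
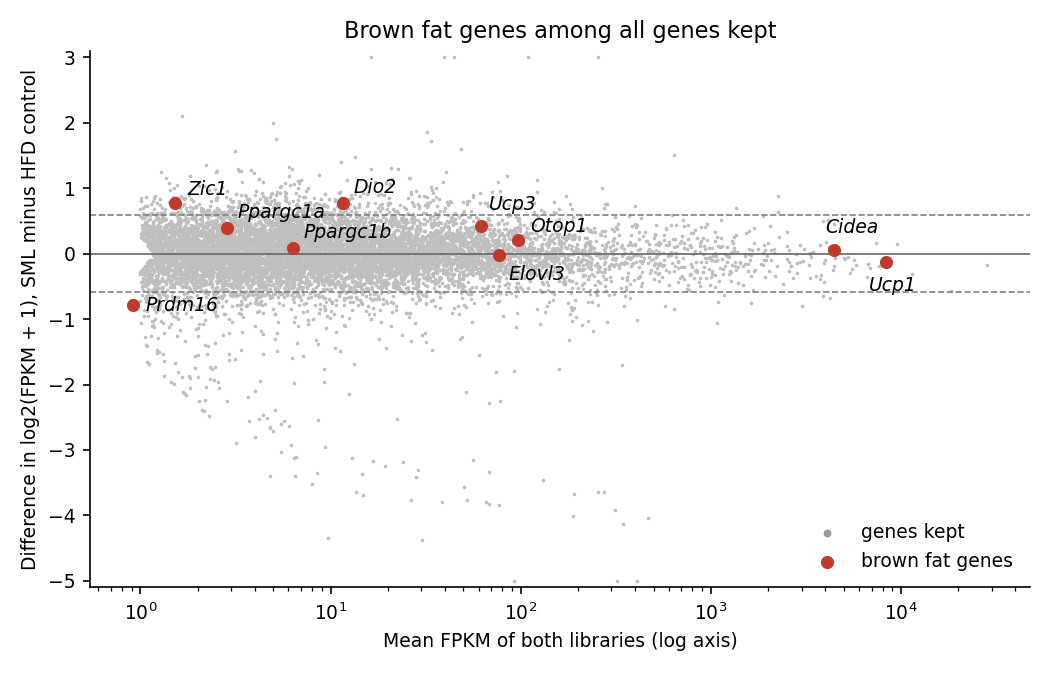
Difference in log2(FPKM + 1), SML minus HFD control, against mean FPKM (log axis) for all 9887 genes tested (grey) and the 10 brown fat genes (red), with dashed lines at 1.5-fold and values outside the axis drawn at its edge. Dio2 and Zic1 lie above the upper line, Prdm16 lies below the lower line at a mean under 1 FPKM, and the other 7 lie between.

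Beyond the 10 genes, 27 of 31 further genes of brown fat function had a row and 26 passed the filter. Of these 3 passed the rule upwards and 0 downwards, and the median was 0.12, though Fgf21, among the 3, passed the filter through its SML level alone. The higher ones were Acot2, a mitochondrial acyl-CoA thioesterase (21.02 FPKM in SML, 10.6 FPKM in HFD control), Cebpb, and Fgf21, a secreted metabolic hormone (2.15 FPKM in SML, 0.89 FPKM in HFD control, on 16 fragments in SML and 9 in HFD control). Slc27a2, a fatty acid transporter and acyl-CoA synthetase, stood just under the rule at 102 FPKM in SML and 68.6 FPKM in HFD control. At the other end Cox8b, a subunit of cytochrome c oxidase, had 14824 FPKM in SML and 22044 FPKM in HFD control, a difference of -0.57, while Cox7a1, another subunit, had 10056 FPKM in SML and 9041 FPKM in HFD control. Clstn3, whose adipose isoform acts on lipid droplets, had 88.2 FPKM in SML and 114 FPKM in HFD control. Ebf2, a transcription factor of brown precursors, had 7.27 FPKM in SML and 6.32 FPKM in HFD control.

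Genes that hold the brown programme back gave no common direction. Rb1, the retinoblastoma gene, was higher at 8.86 FPKM in SML and 5.31 FPKM in HFD control, as was Twist1, a repressor of PGC-1 alpha targets, at 10.7 FPKM in SML and 6.35 FPKM in HFD control. Of 7 tested, 2 were higher and 0 lower, with a median of -0.03. White and beige adipocyte genes numbered 5 tested, of which 3 were lower and 1, Hoxc8, stood at the size rule itself with 2.72 FPKM in SML and 1.48 FPKM in HFD control. The lower ones were Retn (131 FPKM in SML, 240 FPKM in HFD control), Nnat (36.4 FPKM in SML, 63.7 FPKM in HFD control) and Agt (0.62 FPKM in SML, 1.55 FPKM in HFD control). Agt passed the filter through its HFD control level alone, on 10 fragments in SML and 34 in HFD control. The list median of -0.65 was the value of Agt itself. The beige markers Tmem26, Tbx1 and Tnfrsf9 were without a row. Genes common to all adipocytes were close in both libraries, with 0 of 9 higher, 0 lower and a median of 0.02, from -0.35 for Adipoq to 0.10 for Lipe. When that list was used to centre the data, Dio2 and Zic1 stayed the members called. The shift was small and left each of them at a difference of 0.76.

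**Figure D4:**
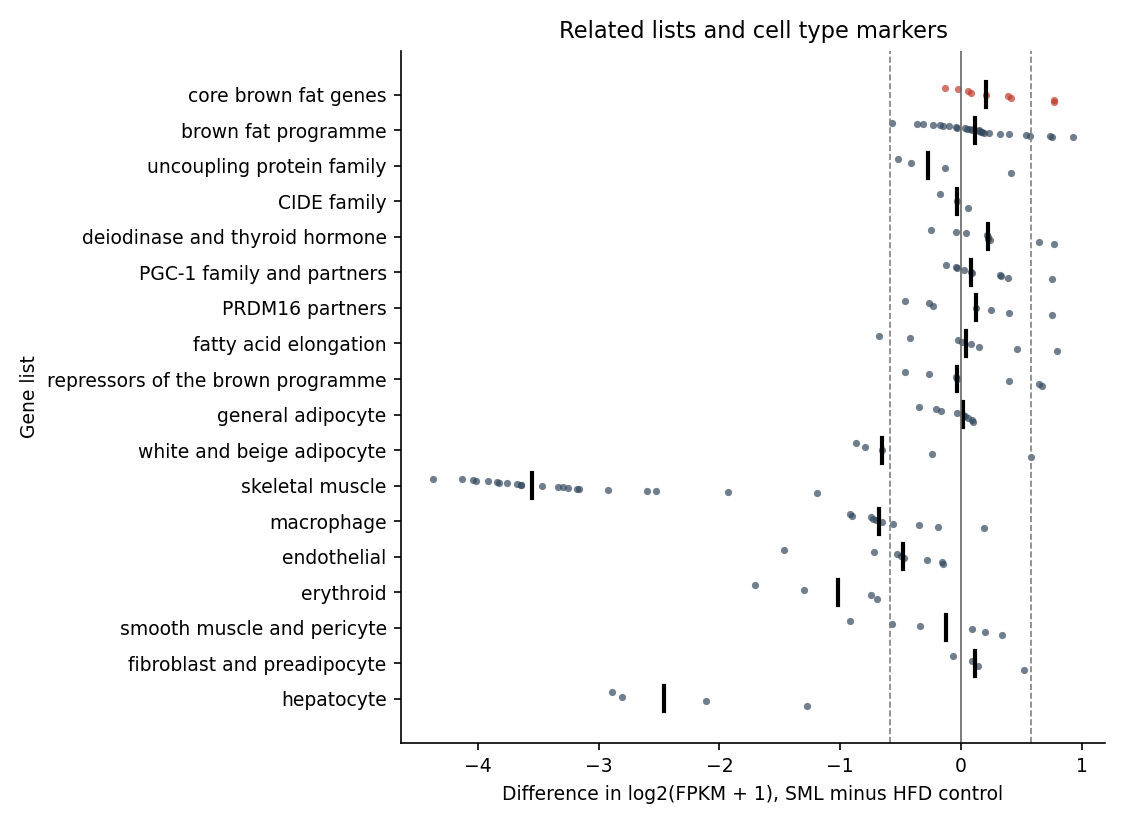
Difference in log2(FPKM + 1), SML minus HFD control, of each gene that passed the filter in the core brown fat genes (red), related lists and cell type markers (dark), with the list median as a black bar and 1.5-fold as dashed lines. The brown fat programme and general adipocyte lists centre near 0, whereas the medians of white and beige adipocyte, skeletal muscle, hepatocyte, erythroid and macrophage genes lie to the left. All hepatocyte genes shown, and Agt at the white and beige median, passed the filter through their HFD control level alone. That fixes the side of 0 on which the hepatocyte median lies, though not its distance from 0.

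Markers of the other cells in the depot stood lower or near 0. Endothelial markers had 0 of 8 higher and 2 lower, Cldn5 and Cdh5, with a median of -0.48. Macrophage markers had a median of -0.68, with summed levels of 291 FPKM in SML and 474 FPKM in HFD control, and erythroid markers a median of -1.02, with 1012 FPKM in SML and 1974 FPKM in HFD control. Hepatocyte markers were low in both libraries, at a summed 0.45 FPKM in SML and 19.8 FPKM in HFD control. The 4 that passed the filter did so through their HFD control level alone, so the filter fixed the direction of their differences, though not the size. Smooth muscle and pericyte markers (median -0.12, 1 of 6 lower) and fibroblast and preadipocyte markers (median 0.12, 0 of 4 past the rule) were nearer to 0. The nerve markers Th, Dbh and Snap25 were without a row. The part of these cells in the values of the 10 genes was not tested.

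Across all genes the difference followed the base composition of the transcript. Spearman's rho with GC content was -0.33 over 9818 genes, which are not independent replicates, and the median difference was 0.25 for genes under 45% GC and -0.08 for those of 55% and above. Dio2 (43.4% GC), Ppargc1a (41.7%) and Zic1 (45.7%) lie on the AT-rich side, where the fitted trend was 0.22, 0.29 and 0.13. Prdm16 (53.3%), Cidea (55.6%) and Ppargc1b (57.8%) lie where it was -0.01, -0.12 and -0.05. The Zic1 value is that of its longest annotated transcript, of 5606 bases, whereas count over FPKM implied 3346 bases. With the trend removed 304 genes were higher and 539 lower, Zic1 remained the 1 member called, and the differences became -0.16 for Ucp1, 0.51 for Ucp3, 0.18 for Cidea, 0.13 for Ppargc1b, 0.02 for Elovl3 and 0.26 for Otop1. Among genes of the related lists called higher, Thrb (44.1% GC), Gabpa (41.4%), Rb1 (41.2%) and Elovl6 (44.0%) also lie on the AT-rich side. Their differences of 0.65, 0.75, 0.64 and 0.80 are uncorrected. Hoxc8 (50.5%), Acot2 (53.7%), Fgf21 (54.5%), Twist1 (59.3%) and Cebpb (67.2%), likewise called higher, have more GC. Whether the calls of these genes hold with the trend removed was not tested.

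**Figure D5:**
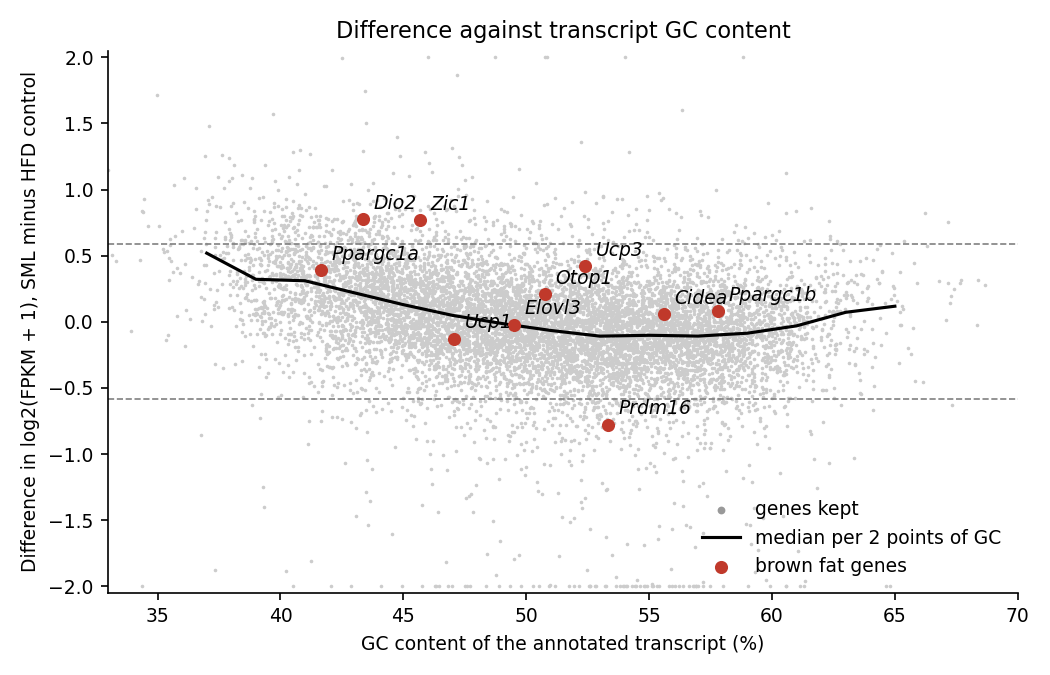
Difference in log2(FPKM + 1), SML minus HFD control, against GC content (%) of the longest annotated transcript for genes tested (grey, values outside the axis at its edge), the median per bin of GC content (black line) and the 10 brown fat genes (red). Ppargc1a sits near the line, Dio2 and Zic1 lie above it and Prdm16 below it.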

How the data were processed

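The 10 genes and the gene lists were chosen with earlier results of these data known. RNA integrity was 8.0, per the labels' protocols, and poly(A) RNA was purified on oligo-dT beads. The FPKM columns were computed by the authors, who used CASAVA 1.8 and Cufflinks with build mm10 per the submitters' processing notes; aligner, annotation and filters are not given in the sources at hand. Deposited count columns are a scaled signal, not raw counts. Low values moved in steps of 0.866 (SML) and 0.637 (HFD control), taken as 1 fragment, and 90.3% of 740 and 90.8% of 520 low values of up to 20 steps were whole within 0.1. Intervals used fragments rounded to whole numbers and cover counting error only, since PCR copies are not independent molecules. Of the 14189 rows, 1443 listed SML FPKM at 0 beside a count above 0, and 274 listed HFD control FPKM so. None of these was a row of the 10 genes. How far such zeros enter the 1117 genes that were lower without a filter was not tested.

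Rows were summed by symbol, and all lists were measured on the whole table. Named genes were the 10, the members of their families, and list genes at the ends of the difference or past the size rule, with further family and list genes named for their function. A few genes covered by this rule are not reported here. The deposited start coordinate counts from 0 and was raised by 1. GC content and length came from the longest transcript in GENCODE M21 (GRCm38), matched for 99.3% of genes tested, and their trend was fitted with loess in R 4.3.3. Other steps used Python 3.11.15, numpy 2.4.6, pandas 2.3.3, scipy 1.17.1 and matplotlib 3.10.9, and were tested on simulated data. Alternatives were the pseudocount, the filter, the value compared, the rows per symbol, the scaling, the GC and length trend, the size rule and the treatment of listed zeros.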

Additional observations from a re-analysis of the deposited data

How the results depend on the processing

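No paired analysis was possible because each group had 1 library, and for the same reason no library could be left out. The numbers of genes higher and lower, 538 and 569 as reported, depended on how low values were treated: 847 were higher at a pseudocount of 0.1 and 883 with the count columns in place of FPKM. At a pseudocount of 5 there were 165 higher and 254 lower, at a mean FPKM of at least 5 there were 319 higher and 306 lower, without a filter 1117 were lower, and at 2-fold 66 were higher and 194 lower. Correction for GC content and length left 304 higher. Of the 10 genes, 0 were higher at a pseudocount of 5 and 0 at 2-fold, 1 (Dio2) at a mean FPKM of at least 5, 1 (Zic1) after that correction, and 1 (Prdm16) was lower without a filter; these follow from how each setting is built, since the higher filter leaves Zic1 untested, the absence of a filter admits Prdm16, a larger pseudocount shrinks differences of low genes, the correction takes 0.22 from Dio2, and the differences of Dio2 and Zic1 lie under 2-fold. The median difference of the genes passing the filter, 0.21 as reported, was 0.0808 at a mean FPKM of at least 5, where 7 genes passed, 0.29 with equal totals and 0.29 with equal totals without the skeletal muscle list. The scaling that centred the general adipocyte list was chosen after seeing the data. Signs were kept in all 13 alternatives by each of the 10 genes except Elovl3, which ran from -0.04 to 0.06. Several alternatives could not turn a sign. The filters, the rows per symbol and the listed zeros left each difference unchanged, and a pseudocount alters only its size. Signs could turn only under the count columns, the scalings and the GC and length correction. Depth limits Prdm16, with 33 fragments in SML, and Zic1, with 36 in HFD control.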

Other observations

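The deposited rows carry details that bear on how these genes can be read. The end coordinate matched an annotated transcript boundary in 45.9% of rows and the start in 47.5% after adding 1 base, against 5.28% as deposited. Count over FPKM gives the transcript length behind each row, and for 8 of the 10 genes this came within 5% of the longest annotated transcript. Of the 574 genes used to fit this length, 65.9% came within 5%, so a deviation beyond it was not rare. Cidea was 5.47% longer, at 1176 against 1115 bases, and its row began 22395 bases upstream of the gene. Zic1 was the exception in the other direction, at 3346 bases against 5606 for the longest annotated transcript.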
